A study of Mus musculus with 6 samples.

Results

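The calcium/calmodulin-dependent kinases were followed in the hippocampus of DBA/2 and C57BL/6 mice as 10 genes chosen by symbol, out of 51912 genes in the deposited table. These are the 4 CaMKII genes Camk2a, Camk2b, Camk2d and Camk2g, the upstream kinase genes Camkk1 and Camkk2, the CaMKI genes Camk1, Camk1d and Camk1g, and Camk4. The study sequenced RNA from frozen hippocampus of both inbred strains to find genes that differ between them. There were 3 libraries from DBA/2 mice and 3 from C57BL/6 mice, with no treatment stated in the labels for either strain. The labels give neither sex, age nor substrain, and nothing in them says plainly that each library came from a separate animal, and the p-values therefore speak only of how far these libraries lie apart, in part perhaps for technical reasons.

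These kinases are switched on when calcium enters a neuron and binds calmodulin. CaMKII is a large ring of kinase subunits that is very abundant in forebrain synapses, where it phosphorylates receptors and scaffold proteins and, once active, phosphorylates a threonine of its own regulatory segment. The CaMKK enzymes instead work in a cascade: they phosphorylate CaMKI and CaMKIV, and CaMKIV in turn phosphorylates the transcription factor CREB in the nucleus.

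The CaMKII genes encode closely related proteins, so their transcripts were compared first, because reads from one gene could be counted for another. The coding stretch around the regulatory threonine is shown for Camk2b, Camk2d and Camk2g, 5′ to 3′, with the threonine codon in capitals. That codon is number 287 in each, within 1 coding exon, and the sequences come from GENCODE M21 transcripts on GRCm38. They lie at chr11:5988973-5989023 on the minus strand for Camk2b, chr3:126797717-126797767 on the plus strand for Camk2d and chr14:20760415-20760465 on the minus strand for Camk2g.
Camk2b: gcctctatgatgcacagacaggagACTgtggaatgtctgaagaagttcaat
Camk2d: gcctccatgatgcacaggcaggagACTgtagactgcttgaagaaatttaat
Camk2g: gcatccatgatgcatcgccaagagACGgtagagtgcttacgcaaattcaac
Over these 51 bases Camk2b and Camk2d differed at 8 bases, Camk2d and Camk2g at 13, and Camk2b and Camk2g at 17. Across whole transcripts, the longest run of identical bases between any pair of the 4 CaMKII genes was 34 bases. The longest transcript of each of the 10 kinase genes was also aligned to the longest transcript of every gene with at least 10 counts in total. None aligned to another gene over at least 200 bases at 95% identity, and other transcripts were not searched. In GENCODE M21 (GRCm38), Camk2b spans 5969644 to 6066362 and Camkk1 73019008 to 73042073 on chromosome 11, and Camk2g 20734875 to 20794088 on chromosome 14. Camkk2 spans 122731170 to 122779409 on chromosome 5, Camk1 113334124 to 113343984 on chromosome 6, and Camk1g 193346346 to 193370298 on chromosome 1. Camk1 shares 232 exonic bases with Ogg1, a DNA repair gene on the opposite strand, and Camk4 shares 72 with the antisense gene 2310026I22Rik. Whether counting used strand is not given in the sources used here, so reads in these overlaps cannot be assigned.

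Total counts were 13839366 to 16912153 in DBA/2 libraries and 13867280 to 20185683 in C57BL/6 libraries. Markers of hippocampal neurons were present in both strains. Slc17a7, the vesicular glutamate transporter of excitatory neurons, had 213 ± 11.6 FPKM in DBA/2 and 200.5 ± 13.0 FPKM in C57BL/6, and Prox1, a dentate granule cell factor, had 15.1 ± 1.02 FPKM in DBA/2 and 14.7 ± 0.44 FPKM in C57BL/6 (SD, n = 3 each). FPKM is the count divided by exonic length and by the library's total count. C57BL/6 replicates 1 and 3 held 3214 and 6995 counts of Xist, the transcript of the inactive X chromosome, whereas DBA/2 libraries held 2 to 12 and C57BL/6 replicate 2 held 1. The sex of the mice, as read from Xist, is therefore not balanced between the strains. A fit without both C57BL/6 libraries with Xist counts leaves 1 library in that strain. A call lost in that fit need not mean a smaller difference. Of 17517 genes tested, 4000 (22.8%) passed an adjusted p of 0.05 and are referred to as called, 9.09% of all as higher and 13.7% as lower in DBA/2. The test was edgeR's quasi-likelihood F test, and p-values were adjusted after Benjamini and Hochberg.

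Differences between the strains in the kinase genes were small. Camk2d was called lower in DBA/2, by 18.2%, and Camk1d was called higher, by 8.92%. The other 8 genes, among them the abundant Camk2a and Camk2b, did not pass the test. The share called, 2 of 10 (20%), lay near the 22.8% of all genes tested. Log2 fold changes of DBA/2 over C57BL/6 ran from -0.29 to 0.12 with a median of -0.03, against a median of 0.0027 over all genes. Their median absolute size was 0.09, against 0.15 over all genes. Levels in CPM did not overlap between the strains for 4 of the 10 genes (Camk2a, Camk2d, Camkk1 and Camk1d), against 36.8% of all genes.

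**Figure D1:**
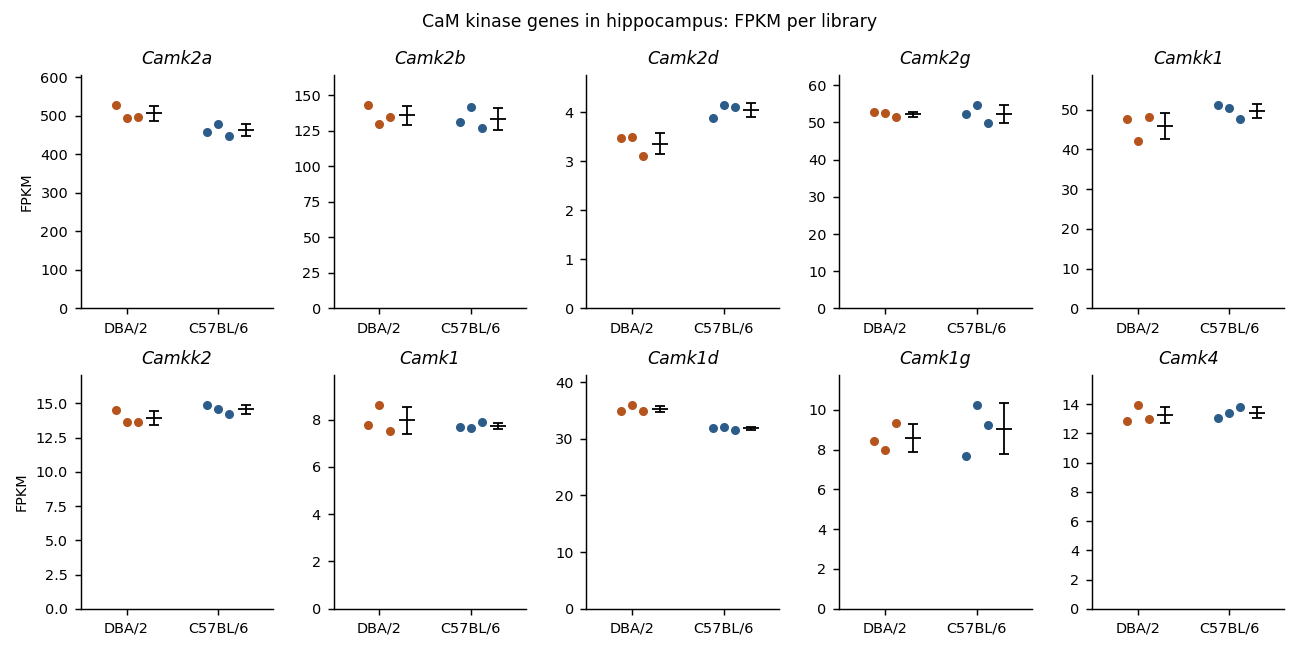
FPKM of the 10 kinase genes in each library, with DBA/2 left of C57BL/6. Points are libraries, and the bar beside them is the mean ± SD (n = 3). In FPKM, Camk2a and Camk1d sit above, and Camk2d below, the C57BL/6 libraries in every DBA/2 library.

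Within a library the genes spanned a wide range of levels, and their order was nearly the same in both strains. Camk2a was the highest, with a mean of 484 FPKM over all 6 libraries, followed by Camk2b at 134 FPKM. Camk2g (52.2 FPKM), Camkk1 (47.8 FPKM) and Camk1d (33.5 FPKM) came next. Camkk2 (14.2 FPKM), Camk4 (13.3 FPKM), Camk1g (8.81 FPKM), Camk1 (7.85 FPKM) and Camk2d (3.70 FPKM) were lower. Camk1g and Camk1 overlapped in both strains. The ranges of Camkk2 and Camk4 overlapped in DBA/2, and those of Camk2g and Camkk1 in C57BL/6. The order depends on the exonic length: the deposited length of Camk2g is 3703 bases and that of Camk4 is 12331 bases, whereas GENCODE M21 gives 6401 and 3259 bases. With the GENCODE lengths Camk4 had rank 3 at 50.5 FPKM and Camk2g rank 6 at 30.2 FPKM. A gene's own fold change between strains does not depend on its length, but its share of a summed FPKM does.

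Camk2a encodes the alpha subunit of CaMKII, which predominates in excitatory forebrain neurons. It had 528, 493 and 497 FPKM in DBA/2 and 459, 478 and 448 FPKM in C57BL/6. Each DBA/2 library was above each C57BL/6 library, but the gap between the nearest libraries was smaller than the SD within either strain. A log2 fold change of 0.11 ± 0.05 (SE) was not called (edgeR, adjusted p = 0.103). It passed with library size alone as the scaling, with limma-voom and without DBA/2 replicate 2, with adjusted p of 0.0383, 0.0402 and 0.0447. Without both C57BL/6 libraries that held Xist counts it was 0.06. Camk2a took 0.368% to 0.394% of all counts in DBA/2 and 0.334% to 0.357% in C57BL/6.

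Camk2b encodes the beta subunit, which binds actin filaments in spines. It had 143, 129 and 135 FPKM in DBA/2 and 131, 141 and 127 FPKM in C57BL/6, and the strains overlapped. Its log2 fold change was 0.0030 ± 0.05 (SE; edgeR, adjusted p = 0.979). Camk2g, the gamma subunit gene, had 52.7, 52.4 and 51.4 FPKM in DBA/2 and 52.3, 54.7 and 49.8 FPKM in C57BL/6. These too overlapped, with a log2 fold change of -0.03 ± 0.05 (SE; edgeR, adjusted p = 0.766).

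Camk2d encodes the delta subunit, best known from heart but also made in brain, and lies on chromosome 3 from 126596302 to 126846326 (GRCm38). Its levels were 3.48, 3.49 and 3.12 FPKM in DBA/2 and 3.88, 4.15 and 4.11 FPKM in C57BL/6. The strains did not overlap. The counts behind these values were 1323, 1318 and 970 in DBA/2 and 1468, 1294 and 1864 in C57BL/6. Camk2d fell in DBA/2, at a log2 fold change of -0.29 ± 0.06 (SE; edgeR, adjusted p = 0.000486). The call was kept without any 1 library, with adjusted p from 0.000617 to 0.00593. Without both C57BL/6 libraries with Xist counts the log2 fold change was -0.33. The call was lost when limma was run on log2-transformed FPKM, where the adjusted p was 0.0584 with a pseudocount of 1 and 0.0592 with one of 0.1.

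Some markers of neighbouring tissue and of glia were lower in DBA/2 than in C57BL/6, as Camk2d was. The summed FPKM of 10 thalamus and habenula markers was 46.9 to 58.3 in DBA/2 and 78.2 to 109.95 in C57BL/6, with Prkcd, Gbx2, Tac2, Calb2 and Lef1 called lower, 5 of the 10 (50%, against 22.8% of all genes), and none higher. Lhx9 pointed the other way, with an uncalled log2 fold change of 0.12. Gbx2 rested on 1 to 11 counts a library in DBA/2 and 27 to 77 in C57BL/6, and shares 946 exonic bases with an opposite-strand gene. Calb2 and Prkcd weighed most in the sum, with means of 22.8 and 10.5 FPKM in DBA/2 and 36.8 and 23.3 FPKM in C57BL/6. The call of Prkcd was lost without any 1 DBA/2 library, that of Lef1 without DBA/2 replicate 3, and those of Tac2 and Lef1 without both C57BL/6 libraries with Xist counts. In that last fit Tac2 and Lef1 had log2 fold changes of -0.67 and -0.49, against -0.96 and -0.9998 with all libraries. The 8 oligodendrocyte markers summed to 733 to 1002 FPKM in DBA/2 and 1085 to 1352 FPKM in C57BL/6, with 2 called lower, Mog and Opalin (25%). Both calls were lost without DBA/2 replicate 2, and that of Opalin also without the C57BL/6 libraries with Xist counts. Opalin there had a log2 fold change of -0.34, against -0.44 with all libraries. The sums of 7 microglia markers overlapped, at 49.8 to 54.6 FPKM in DBA/2 and 53.4 to 59.6 FPKM in C57BL/6, with 2 called lower, Cx3cr1 and Tmem119 (28.6%), the second not without the C57BL/6 libraries with Xist counts. Tmem119 there had a log2 fold change of -0.32, against -0.48 with all libraries. Of the microglia markers, Aif1 and P2ry12 pointed the other way, with uncalled log2 fold changes of 0.38 and 0.12. Astrocyte markers were mixed, with a median of -0.12. Slc1a2 and Fgfr3 were called higher, at 0.30 and 0.15. Gfap, S100b, Aqp4 and Slc1a3 were called lower, at -0.64, -0.37, -0.30 and -0.12. The calls of Fgfr3, Aqp4 and Slc1a3 held in 10, 8 and 5 of 16 alternatives. No marker was at 0 in all libraries. In tissue RNA, fewer cells of a type and less RNA per cell cannot be told apart, and the part of these markers in the fall of Camk2d was not tested.

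**Figure D2:**
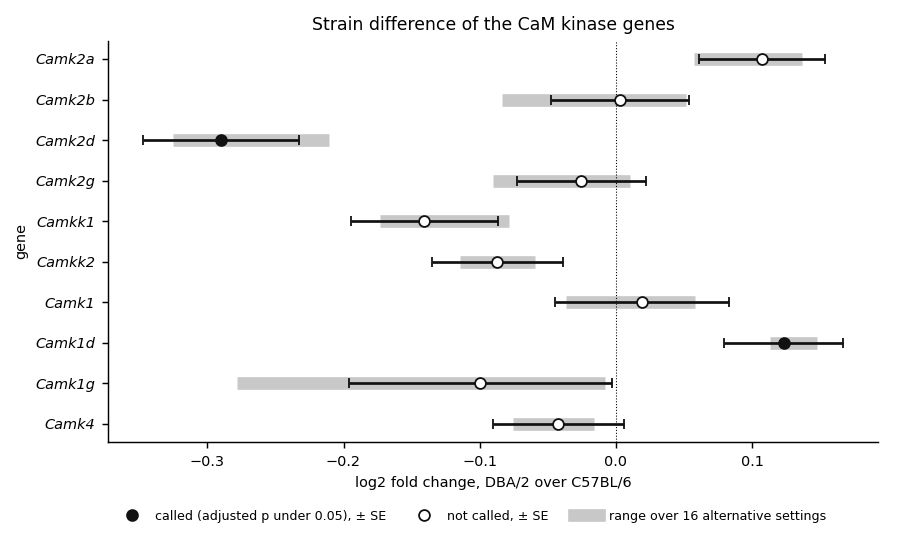
Log2 fold change of DBA/2 over C57BL/6 for each kinase gene, with its SE. Filled points passed an adjusted p of 0.05, and grey bars span 16 alternative settings. Camk2d at -0.29 and Camk1d at 0.12 are filled, and the grey bars of Camk2b, Camk2g and Camk1 cross 0.

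The makeup of the CaMKII transcripts lay slightly apart between the strains. Camk2a made up 72.6%, 72.7% and 72.4% of the summed FPKM of the 4 CaMKII genes in DBA/2, and 71.0%, 70.5% and 71.3% in C57BL/6. Camk2b made up 19.7%, 19.1% and 19.6% in DBA/2 and 20.3%, 20.8% and 20.2% in C57BL/6. The share of Camk2a was thus higher, and that of Camk2b lower, in each DBA/2 library than in each C57BL/6 library. The 4 shares are parts of the same sum, so a higher share of Camk2a by itself lowers the others. They are not 4 separate results, and the FPKM of Camk2b and of Camk2g overlapped between the strains. Camk2g held 7.49% ± 0.24 in DBA/2 and 8.02% ± 0.09 in C57BL/6, and Camk2d held 0.483% ± 0.03 in DBA/2 and 0.622% ± 0.03 in C57BL/6 (SD, n = 3 each). The ratio of Camk2a to Camk2b in FPKM was 3.69, 3.81 and 3.69 in DBA/2 and 3.50, 3.38 and 3.53 in C57BL/6. Neither shares nor ratios depend on the scaling between libraries, but the size of both depends on the exonic lengths. The fold between strains of a ratio does not depend on them. An exact two-sided permutation test gave p = 0.1 for each of the 4 shares, also after Benjamini-Hochberg adjustment over the 4, and 0.1 is the smallest that 3 libraries against 3 allow. With GENCODE lengths the shares were apart too, and the difference for Camk2g (DBA/2 minus C57BL/6) was -0.33 percentage points, against -0.53 with the deposited lengths. The summed FPKM of the 4 genes was 697 ± 25.9 in DBA/2 and 651 ± 25.6 in C57BL/6 (SD, n = 3 each), and these ranges overlapped.

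**Figure D3:**
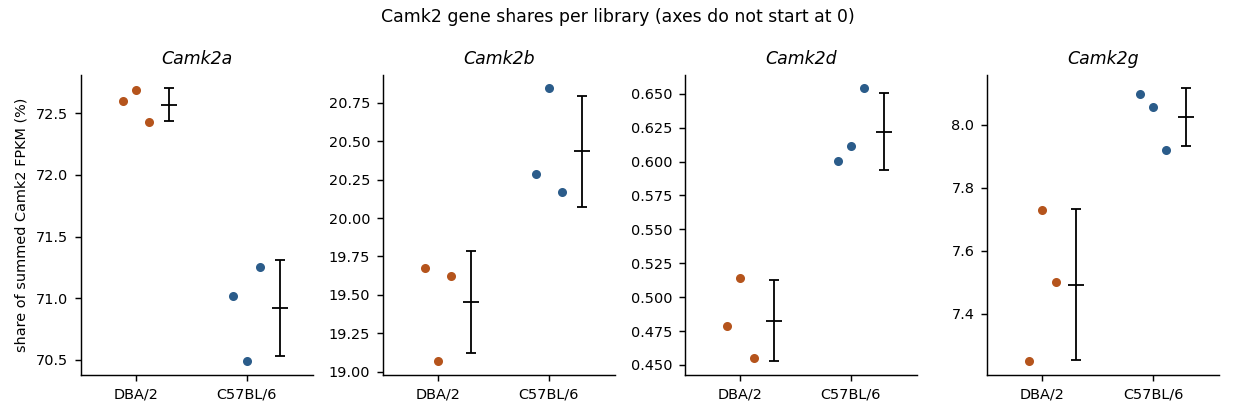
Share of each CaMKII gene in the summed CaMKII FPKM of a library, in percent, with DBA/2 left of C57BL/6. Points are libraries, bars are mean ± SD (n = 3), and the axes do not start at 0. The strains are apart in all 4 panels, with the share of Camk2a higher and the other shares lower in DBA/2. The 4 shares are parts of the same sum, so a higher share of Camk2a lowers the others.

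Markers of neurons and astrocytes were set beside the CaMKII shares. Of 8 excitatory neuron markers 2 rose in DBA/2 and none fell, a share (25%) near the 22.8% of all genes, and the median log2 fold change was 0.04. Neurod6 rose to 114 ± 6.38 FPKM in DBA/2, against 92.3 ± 4.38 FPKM in C57BL/6, and Tbr1 to 12.8 ± 1.30 FPKM in DBA/2, against 9.40 ± 0.49 FPKM in C57BL/6 (SD, n = 3 each). The call of Neurod6 was lost without both C57BL/6 libraries with Xist counts, where its log2 fold change was 0.21, against 0.28 with all libraries. Both genes encode transcription factors of pyramidal neurons. The whole list summed to a range that ran from 531 to 595 FPKM in DBA/2 and from 507 to 557 FPKM in C57BL/6. Of 8 interneuron markers Vip was called higher and Slc32a1 lower in DBA/2 (25%), neither without both C57BL/6 libraries with Xist counts. Their log2 fold changes there were 0.43 and -0.27, against 0.45 and -0.29 with all libraries. The summed list ran from 586 to 657 FPKM in DBA/2 and from 602 to 655 FPKM in C57BL/6. Of 8 astrocyte markers Slc1a2 and Fgfr3 were called higher and Gfap, Aqp4, Slc1a3 and S100b lower (75%), with sums of 487 to 536 FPKM in DBA/2 and 495 to 528 FPKM in C57BL/6. Gfap, Slc1a2 and S100b stayed called in all 16 alternatives, Fgfr3 in 10, Aqp4 in 8 and Slc1a3 in 5. Leaving out 1 library ended the call of Slc1a3 for each library but DBA/2 replicate 2, that of Aqp4 for each DBA/2 library and C57BL/6 replicate 3, and that of Fgfr3 for DBA/2 replicates 1 and 2 and C57BL/6 replicates 1 and 3. The part of these markers in the CaMKII shares was not tested.

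Neither upstream kinase gene passed the test. Camkk1 had 47.5, 42.1 and 48.0 FPKM in DBA/2 and 51.1, 50.3 and 47.7 FPKM in C57BL/6. DBA/2 replicate 2 lay lowest, and DBA/2 replicate 3 lay above C57BL/6 replicate 3 in FPKM. Camkk1 had a log2 fold change of -0.14 ± 0.05 (SE; edgeR, adjusted p = 0.0642). It passed with no filter on low counts and without DBA/2 replicate 3 or C57BL/6 replicate 3, with adjusted p of 0.0426, 0.0407 and 0.0495, and was -0.08 without DBA/2 replicate 2. Camkk2, which also phosphorylates the energy sensor AMPK, had 14.5, 13.6 and 13.7 FPKM in DBA/2 and 14.9, 14.6 and 14.3 FPKM in C57BL/6. The strains overlapped, and its log2 fold change was -0.09 ± 0.05 (SE; edgeR, adjusted p = 0.216). The ratio of Camkk1 to Camkk2 in FPKM was 3.29 ± 0.22 in DBA/2 and 3.41 ± 0.06 in C57BL/6 (SD, n = 3 each), a difference within the spread of DBA/2.

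Among the CaMKI genes, which act downstream of the CaMKK enzymes, Camk1d was the one that passed the test. It had 34.9, 35.9 and 34.9 FPKM in DBA/2 and 31.9, 32.1 and 31.5 FPKM in C57BL/6. The strains were well apart, and the coefficient of variation was 1.63% in DBA/2 and 0.894% in C57BL/6. Camk1d, on chromosome 2 from 5293457 to 5714515 (GRCm38), rose with a log2 fold change of 0.12 ± 0.04 (SE; edgeR, adjusted p = 0.0451). The adjusted p lay close to the threshold, and the call was lost without any 1 of the 6 libraries, with adjusted p from 0.0608 to 0.151. It was lost too with no filter on low counts (adjusted p = 0.0705). Without both C57BL/6 libraries with Xist counts it was also lost, at a log2 fold change of 0.11. The log2 fold change itself stayed between 0.11 and 0.15 over the 16 alternatives.

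Camk1 had 7.79, 8.60 and 7.52 FPKM in DBA/2 and 7.70, 7.64 and 7.88 FPKM in C57BL/6, and the strains overlapped. Its log2 fold change was 0.02 ± 0.06 (SE; edgeR, adjusted p = 0.876). Ogg1, which shares exonic bases with Camk1, had 56, 72 and 67 counts in DBA/2 and 108, 72 and 127 counts in C57BL/6, with a log2 fold change of -0.57 ± 0.17 (SE; edgeR, adjusted p = 0.0191). Camk1g, a CaMKI isoform that is anchored to membranes by lipid, had 8.42, 7.96 and 9.35 FPKM in DBA/2 and 7.69, 10.2 and 9.21 FPKM in C57BL/6. It varied most between libraries of a strain, with coefficients of variation of 8.26% in DBA/2 and 14.1% in C57BL/6. It rests on 357 to 393 counts a library in DBA/2 and 357 to 513 in C57BL/6, the lowest counts of the family. Its log2 fold change was -0.10 ± 0.10 (SE; edgeR, adjusted p = 0.524).

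Camk4 encodes the nuclear kinase CaMKIV. It had 12.8, 13.9 and 13.0 FPKM in DBA/2 and 13.0, 13.4 and 13.8 FPKM in C57BL/6, and the strains overlapped, with a log2 fold change of -0.04 ± 0.05 (SE; edgeR, adjusted p = 0.597). The antisense gene that overlaps Camk4 had 1 to 5 counts a library in DBA/2 and 2 to 4 in C57BL/6, while Camk4 itself had 2220 to 2883 counts in DBA/2 and 2295 to 3435 in C57BL/6.

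Around the kinases, 53 genes of calmodulin, its binding proteins, inhibitors, phosphatases, substrates and targets were examined as 8 lists. Of these, 10 were called higher and 5 lower in DBA/2, or 28.3% against 22.8% of all genes, with a median log2 fold change of 0.02 against 0.0027 over all genes. Without both C57BL/6 libraries that held Xist counts 9 were called, 5 of them higher. The lower genes included both endogenous inhibitors of CaMKII, and the larger of their falls was greater than any change in the kinases. The lists were chosen with earlier results of these data known, so a share called is no test of a list.

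Camk2n1 and Camk2n2 encode small proteins that bind active CaMKII and block its kinase domain. Camk2n1 had 126, 97.4 and 100.4 FPKM in DBA/2 and 177, 179 and 165 FPKM in C57BL/6. Its highest DBA/2 library lay well under the lowest C57BL/6 library. The fall had a log2 fold change of -0.71 ± 0.10 (SE; edgeR, adjusted p = 0.00272), and the call was kept in all 16 alternatives, with adjusted p up to 0.0155. Per unit of Camk2a FPKM, Camk2n1 stood at 0.213 ± 0.02 in DBA/2 and 0.377 ± 0.0086 in C57BL/6 (SD, n = 3 each). Camk2n2 had 40.9, 40.4 and 41.5 FPKM in DBA/2 and 49.3, 47.4 and 45.1 FPKM in C57BL/6. The strains did not overlap, and the fall was smaller, with a log2 fold change of -0.23 ± 0.06 (SE; edgeR, adjusted p = 0.00542). That call was lost without C57BL/6 replicate 1 (adjusted p = 0.0507). It was lost too without both C57BL/6 libraries with Xist counts, where the log2 fold change was -0.24. The thalamus, habenula and oligodendrocyte markers described with Camk2d were lower in the same DBA/2 libraries, and their part in these falls was not tested.

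Neither calmodulin gene examined was called by edgeR, DESeq2 or limma-voom, and 0 had an unadjusted p under 0.05 in edgeR. Calm2 and Calm3, which encode the same protein, averaged 672 ± 33.0 and 692 ± 45.1 FPKM in DBA/2 and 671 ± 29.9 and 682 ± 16.7 FPKM in C57BL/6 (SD, n = 3 each). Their log2 fold changes were -0.02 and -0.0037, each smaller than its SE, and the sign turned for both under some alternatives. Calm2 and Calm3 each have a similar gene copy, so some of their reads could have been counted elsewhere. Over both strains the copy of Calm2 held 20 to 58 counts a library, against 13882 to 18861 for Calm2. That of Calm3 held 62 to 91, against 23319 to 32424 for Calm3. Of 3 neuronal calmodulin-binding proteins, Pcp4 fell. It had 108, 97.5 and 101 FPKM in DBA/2 and 271, 201 and 193 FPKM in C57BL/6, with C57BL/6 replicate 1 far above its group. Its log2 fold change was -1.14 ± 0.16 (SE; edgeR, adjusted p = 0.00701), which missed the threshold without DBA/2 replicate 2 (adjusted p = 0.0507). Pcp4 shares 243 exonic bases with Igsf5 on the same strand. C57BL/6 replicate 1 also had the highest sums of thalamus and habenula markers (109.95 FPKM) and of oligodendrocyte markers (1352 FPKM). The part of these markers in the fall of Pcp4 was not tested. Nrgn, the postsynaptic neurogranin, had 562 ± 32.8 FPKM in DBA/2 and 592 ± 33.6 FPKM in C57BL/6, and Gap43, a growth cone protein, had 79.9 ± 11.3 FPKM in DBA/2 and 90.6 ± 5.88 FPKM in C57BL/6 (SD, n = 3 each). Neither was called by edgeR, but Gap43 passed with no filter on low counts and without DBA/2 replicate 3 (adjusted p = 0.00144 and 0.00885).

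**Figure D4:**
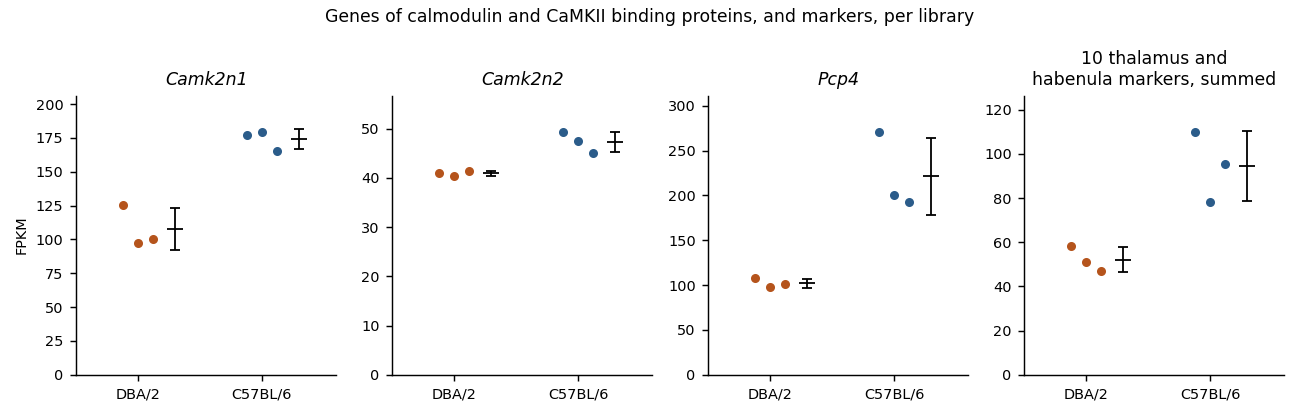
FPKM of Camk2n1, Camk2n2 and Pcp4 in each library, and the summed FPKM of 10 thalamus and habenula markers, with DBA/2 left of C57BL/6. Points are libraries and bars are mean ± SD (n = 3). In all 4 panels the DBA/2 libraries lie below the C57BL/6 libraries, and the marker sums range from 46.9 to 58.3 in DBA/2 and from 78.2 to 109.95 in C57BL/6.

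Among 12 synaptic partners and substrates of CaMKII, 2 rose and 1 fell, a share called (25%) near the 22.8% of all genes. Grin2b, the NMDA receptor subunit whose tail docks CaMKII, fell to 15.5 ± 0.78 FPKM in DBA/2, against 25.0 ± 2.11 FPKM in C57BL/6. Grin2a, another NMDA receptor subunit, rose to 24.7 ± 1.12 FPKM in DBA/2, against 19.4 ± 0.71 FPKM in C57BL/6. The obligate subunit gene Grin1 rose to 52.6 ± 2.06 FPKM in DBA/2, against 44.2 ± 1.98 FPKM in C57BL/6 (SD, n = 3 each throughout). Grin2a has a similar gene copy, which held 4 to 17 counts a library over both strains. Grin1 shares 1307 exonic bases with an opposite-strand gene, which held 453 to 623 counts a library in DBA/2 and 361 to 529 in C57BL/6. Grin2b shares at most 143 with any opposite-strand gene, and these held 0 to 15 counts a library. The call of Grin1 was lost without both C57BL/6 libraries with Xist counts, where its log2 fold change was 0.17, against 0.23 with all libraries. The other 9 genes, among them the AMPA receptor subunit Gria1 and the scaffold Dlg4, were not called, and the list had a median log2 fold change of 0.04.

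The list named the CREB arm joins CREB genes and their coactivators with deacetylase and Mef2 genes, among them the called Hdac4, Mef2c and Mef2d. In this mixed list, 5 of 13 genes rose and 1 fell, with a median log2 fold change of 0.07. That is 46.2% called, against 22.8% of all genes, of which 9.09% were higher and 13.7% lower. This list was chosen with earlier results of these data known, so its share called is no test of it. The coactivators Crebbp and Ep300, which bind phosphorylated CREB, rose to 7.19 ± 0.16 and 8.15 ± 0.46 FPKM in DBA/2, against 5.82 ± 0.09 and 6.88 ± 0.51 FPKM in C57BL/6. Hdac4, a deacetylase that CaM kinases drive out of the nucleus, rose to 4.497 ± 0.15 FPKM in DBA/2, against 3.34 ± 0.29 FPKM in C57BL/6. Mef2c and Mef2d, transcription factors held down by such deacetylases, rose to 11.2 ± 0.96 and 42.9 ± 0.18 FPKM in DBA/2, against 9.59 ± 0.18 and 38.2 ± 0.61 FPKM in C57BL/6. Crtc1, a calcium-regulated coactivator of CREB, fell to 20.8 ± 0.54 FPKM in DBA/2, against 23.3 ± 0.51 FPKM in C57BL/6 (SD, n = 3 each throughout). Creb1 itself had 5.12 ± 0.18 FPKM in DBA/2 and 4.997 ± 0.29 FPKM in C57BL/6 (SD, n = 3 each) and was not called. Hdac4 shares 3536 exonic bases with the opposite-strand gene Gm26720, which held 0 counts in every library. Without both C57BL/6 libraries with Xist counts the calls of Crtc1, Mef2c and Mef2d were lost. Their log2 fold changes there were -0.21, 0.22 and 0.12, against -0.18, 0.20 and 0.14 with all libraries. Leaving out 1 library ended the call of Mef2c (DBA/2 replicate 1), of Ep300 (C57BL/6 replicate 1) and of Mef2d (DBA/2 replicate 3, C57BL/6 replicate 1 or C57BL/6 replicate 3).

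Among related kinases 2 of 7 genes were called (28.6%), among AMPK subunits 1 of 6 (16.7%) and among phosphatases none, against 22.8% of all genes. Of the related kinases and pseudokinases, Dclk3, a doublecortin-like kinase, rose to 8.42 ± 0.25 FPKM in DBA/2, against 6.43 ± 0.52 FPKM in C57BL/6, and the death-associated kinase Dapk1 rose to 32.0 ± 1.95 FPKM in DBA/2, against 28.1 ± 0.67 FPKM in C57BL/6 (SD, n = 3 each). The call of Dapk1 was lost without DBA/2 replicate 3 and without C57BL/6 replicate 1 or 2 (edgeR, adjusted p = 0.128, 0.0841 and 0.0621). It was lost too without both C57BL/6 libraries with Xist counts, where the log2 fold change was 0.18, against 0.16 with all libraries. Of the AMPK subunits, Prkab2, a beta subunit, rose to 15.6 ± 0.78 FPKM in DBA/2, against 13.2 ± 0.39 FPKM in C57BL/6 (SD, n = 3 each). That call was lost without both C57BL/6 libraries with Xist counts, where the log2 fold change was 0.23, against 0.22 with all libraries. None of 8 phosphatase genes was called by edgeR, and 2 were higher at an unadjusted p under 0.05, whereas DESeq2 and limma-voom each called 1, Ppp1ca. Ppp3r1, the calcineurin B subunit and the most abundant of these, had 285 ± 1.26 FPKM in DBA/2 and 276 ± 12.8 FPKM in C57BL/6 (SD, n = 3 each).

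**Figure D5:**
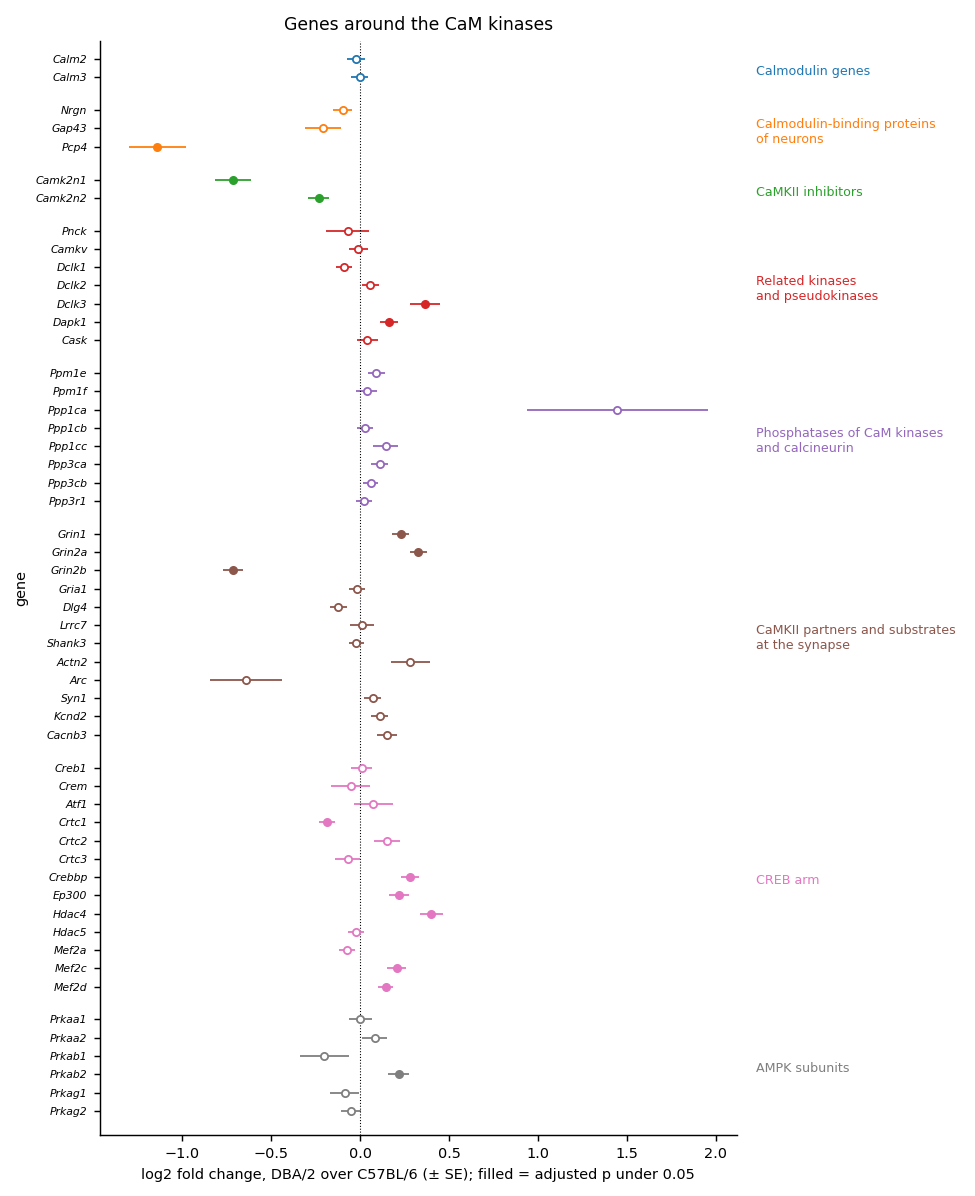
Log2 fold change of DBA/2 over C57BL/6 with its SE for the 53 genes around the kinases, coloured by list. Filled points passed an adjusted p of 0.05. Pcp4 at -1.14, Grin2b at -0.72 and Camk2n1 at -0.71 lie farthest below 0 among the filled points, and Hdac4 at 0.40 farthest above.

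Genes whose level followed that of Camk2a and Camk2d most closely were taken by Pearson's r of log2(FPKM + 1) over the 6 libraries, among 8439 genes with a mean of at least 5 FPKM. For Camk2a these were Igip (0.9996), Porcn (0.9971) and Slc35c2 (0.9854). For Camk2d they were Tiparp (0.9939), Tspyl3 (0.9939) and Csnk1e (0.9906). With 6 libraries and 8439 genes such values describe likeness in this set of libraries, in which the strain difference is shared.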

How the data were processed

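RNA-seq values per gene came from 3 DBA/2 and 3 C57BL/6 hippocampus libraries, grouped by the strain label. The submitters' processing notes list Cufflinks 2.2.1, HISAT2 2.0.1 and Trimmomatic 0.30, with GRCm38 as the build. For the counting program, annotation and strand setting the sources used here give nothing. The authors deposited raw counts and FPKM, and each FPKM equalled the count over exonic length and library total, rescaled, within 0.005. Another 12 columns of per-sample values match no labelled sample and were left out. Libraries of a strain differed by more than sampling noise (chi-square per degree of freedom 3.16 to 3.93), and none was treated as a repeat.

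Counts were tested with edgeR 4.0.16 in R 4.3.3 (robust quasi-likelihood fit, filterByExpr, TMM factors of 1.0045 to 1.012 in DBA/2 and 0.9891 to 0.9948 in C57BL/6), with Benjamini-Hochberg adjustment over 17517 genes. A standard error is the absolute log2 fold change over the square root of F. The fit was tested on simulated counts, with 100 genes changed 1.5-fold and 100 changed 2-fold. It recovered 77% and 88% of them, and 7.3% of its calls were false. Changes as small as those of the kinase genes were not simulated. Alternatives used limma 3.58.1, DESeq2 1.42.0, other scalings and filters, and subsets of libraries. Positions and exon overlaps are from GENCODE M21, which held 99.5% of gene IDs, and similar transcripts were sought with BLAST 2.17.0.

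Members and lists were chosen with earlier results of these data known. Named genes are the 10 kinase genes, every called gene of each list (or the most abundant where none was called), all genes of lists of up to 3, genes overlapping a kinase gene, and the 3 genes most like Camk2a and Camk2d in level. Slc17a7, Prox1, Gria1, Dlg4, Creb1, Ppp1ca, Arc, Aif1, P2ry12 and Lhx9 are named beyond this rule, after their values were seen. A few genes of the lists are not reported here, and list counts, sums and medians leave them out. Itgam has 2 rows, and the one with more counts was used.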

Additional observations from a re-analysis of the deposited data

How the results depend on the processing

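Over 16 alternatives the fall of Camk2n1 stayed called in each and that of Camk2d in 14. Camk1d stayed called in 7, a limit of this small difference. The count of called kinase genes was 1 with the replicate block, both FPKM scales of limma (pseudocounts 1 and 0.1) and without both C57BL/6 libraries with Xist counts, the last chosen after seeing the data and leaving 1 library in that strain, which is assumed to vary like the others. Leaving out 1 library gave 1 to 2 called kinase genes, 0 to 1 higher and 1 to 2 lower. Kinase genes called higher were 2 with library size alone and limma-voom, and 0 with no filter on low counts, the replicate block or without the Xist libraries. Kinase genes called lower were 2 with no filter and 0 with either FPKM scale. The cause of these shifts was not tested, beyond the fewer libraries left in the subsets. Without the Xist libraries 2012 genes were called in all (691 higher, 1321 lower), and 9 pathway genes (5 higher). Leaving out 1 library gave 3131 to 3717 genes in all (1151 to 1483 higher, 1980 to 2252 lower) and 11 to 18 pathway genes (7 to 12 higher, 4 to 9 lower, the 9 without DBA/2 replicate 3). Pairing by replicate number was not clear: deviations of same-numbered libraries correlated at 0.132, -0.079 and 0.003 for numbers 1, 2 and 3. Number 1 matched its own number best, and numbers 2 and 3 did not. With the replicate block the SE went from 0.16 to 0.07 for Pcp4 and from 0.10 to 0.06 for Camk2n1. That of Camk1d went from 0.04 to 0.05. The replicate block gave 3827 genes in all against 4000 without it, and with it Gap43 passed (adjusted p = 0.0115) and Camk1d, Slc1a3 and Fgfr3 did not (adjusted p = 0.0939, 0.086 and 0.0591).

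None of the called genes named changed sign, and uncalled ones did. Without the Xist libraries the log2 fold change was -0.0834 for Camk2b and -0.0505 for Ppp3r1. Calm2 was at 0.0016 with library size alone and 0.0013 with either FPKM scale. Calm3 was at 0.0022 with DESeq2 size factors and the DESeq2 test, 0.0204 with library size alone and 0.0187 with either FPKM scale. Leaving out 1 library gave -0.0326 to 0.0516 for Camk2b, -0.0605 to 0.0107 for Camk2g, -0.0365 to 0.0583 for Camk1, -0.0598 to 0.0203 for Calm2, -0.0424 to 0.0512 for Calm3 and -0.0055 to 0.062 for Ppp3r1.

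The share differences (DBA/2 minus C57BL/6, percentage points) with raw counts were -0.41 for Camk2d and -0.25 for Camk2g, against -0.14 and -0.53 in FPKM, since exonic length weights the genes. With GENCODE M21 lengths, added after seeing the data, they were 1.53 for Camk2a, -1.06 for Camk2b, -0.15 for Camk2d and -0.33 for Camk2g. Leaving out 1 library gave 1.43 to 1.82 for Camk2a, -1.11 to -0.77 for Camk2b, -0.16 to -0.12 for Camk2d and -0.65 to -0.41 for Camk2g.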

Other observations

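Ppp1ca, a catalytic subunit of protein phosphatase 1 named here after its values were seen, had 8.62, 3.97 and 2.78 FPKM in DBA/2 and 2.11, 1.78 and 1.72 FPKM in C57BL/6. The strains did not overlap, but DBA/2 replicate 1 stood far above the rest of its group. Its log2 fold change of 1.45 ± 0.51 (SE) was not called (edgeR, adjusted p = 0.121), while DESeq2 and limma-voom called the gene. Ppp1ca shares exonic bases with Rad9a on the opposite strand. Arc, an activity-regulated gene also named after its values were seen, had 46.0, 37.6 and 60.7 FPKM in DBA/2 and 74.0, 77.6 and 69.3 FPKM in C57BL/6. These did not overlap either, and the log2 fold change of -0.64 ± 0.20 (SE) was not called (edgeR, adjusted p = 0.109).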
